A study of Homo sapiens with 18 samples.

Results

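RNA of the transcriptional co-activators YAP and TAZ and of genes known as TEAD targets was measured in MDA-MB-231 cells, a human triple negative breast cancer line. The genes were taken by name, as the rows of the count matrix whose Ensembl identifier maps to YAP1, WWTR1 (which encodes TAZ), CCN1, CCN2, ANKRD1, AMOTL2, CRIM1, AXL, LATS2 or AJUBA. All 10 were found, each in 1 of the 57448 rows, and all 10 were among the 15587 genes that passed the filter on low counts (at least 1 CPM, the count scaled to a common library total, in at least 3 libraries). RNA-Seq was done on 18 libraries in 6 groups of 3. The groups were untreated parental cells with no modification (MB231-WT), 2 lines labelled as knockouts of GPS2 (KO1 and KO2), the same 2 lines after 10 µM of the AKT inhibitor MK2206 for 4 h (KO1+MK and KO2+MK), and untreated cells with a retroviral, constitutively active, myristoylated AKT (MB231-myrAKT). The knockout lines were made with lentiviral Cas9 and different sets of sgRNAs, selected with puromycin and kept as heterogeneous pools, so that in these cultures fewer cells with a transcript and less of it per cell cannot be told apart. Parental cells carry no vector, so that vector, selection and genotype cannot be told apart, and neither they nor MB231-myrAKT were treated with MK2206.

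In the Hippo pathway, the kinases MST1 and MST2 with SAV1 activate LATS1 and LATS2, which with MOB1 phosphorylate YAP and TAZ and hold them out of the nucleus. Unphosphorylated YAP and TAZ bind TEAD1 to TEAD4 at DNA and raise the transcription of secreted proteins such as CCN1 (CYR61) and CCN2 (CTGF), of ANKRD1, and of LATS2 and AMOTL2, which feed back on the pathway. The activity of YAP and TAZ is set largely by phosphorylation and location, which RNA counts do not record. MDA-MB-231 cells carry an inactivating change in NF2, a regulator upstream of LATS, and are known for active YAP and TAZ.

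The set of RefSeq (GRCh38.p14) promoter windows used here held 12 windows for 8 of the 10 genes. It held none for CCN1 or CRIM1, for a reason that was not examined. The core of the TEAD motif, GGAATG on either strand, was found within the 250 bases before the start in 6 of these 12 windows, those of AJUBA, AMOTL2, ANKRD1, AXL, CCN2 and YAP1, and in 11.9% of all 35116 windows of the same length. For AJUBA, AMOTL2 and AXL the window with the motif was that of an alternative start within the annotated span of the gene, and the more upstream window of each of these genes held none. CCN2 held 3 copies, starting 169, 104 and 95 bases before the start, and ANKRD1 held 2, starting 220 and 128 bases before it. TGANTCA, a loose form of the AP-1 motif in which N is any base, was in 1 of the 12 windows (6.57% of all windows). That match was TGATTCA, in ANKRD1. The FOXO motif GTAAACA was in 1 of them, of WWTR1 (2.98% of all windows), whose windows both lie within the annotated span of the gene. Both motifs were searched on either strand, and neither overlapped a TEAD motif. These matches describe letters, not bound sites. The windows of CCN2 and ANKRD1, the genes with most copies, lie on the minus strand at chr6:131951373-131951622 and chr10:90921088-90921337 and are given 5′ to 3′ with the TEAD core in capitals.
CCN2: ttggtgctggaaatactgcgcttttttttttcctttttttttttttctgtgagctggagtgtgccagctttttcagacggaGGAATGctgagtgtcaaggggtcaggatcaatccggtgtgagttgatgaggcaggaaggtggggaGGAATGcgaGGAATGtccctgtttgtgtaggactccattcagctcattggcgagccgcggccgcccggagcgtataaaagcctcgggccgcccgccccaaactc
ANKRD1: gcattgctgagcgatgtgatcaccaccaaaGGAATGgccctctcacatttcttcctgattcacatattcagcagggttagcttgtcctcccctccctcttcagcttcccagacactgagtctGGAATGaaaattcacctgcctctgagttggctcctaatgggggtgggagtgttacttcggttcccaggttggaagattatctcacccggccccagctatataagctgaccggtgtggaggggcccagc

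Counted reads per library ranged from 23419198 to 39319910. The MK2206-treated libraries held 23419198 to 29939536 and the untreated KO libraries 35627965 to 39319910, so that depth moved with treatment. Its part in the results was not tested. Replicates of a group differed by more than counting error (mean chi-square per gene between 2.26 and 11.6 over 18 pairs), and since the labels do not say that replicates were separate cultures, p-values measure the spread between these libraries. GPS2 RNA was 4.57 ± 0.278 CPM (SD, n = 3) in WT, 4.50 ± 0.0364 in the libraries labelled KO1 and 6.04 ± 0.123 in those labelled KO2. Its RNA level thus does not show the knockout, which the study checked by GPS2 protein and by PCR of genomic DNA, and KO1 and KO2 are given here as labelled. Exons of GPS2 overlap those of EIF5A and of another protein-coding gene. The part of this in the measured level was not tested. AKT1, which the myrAKT vector encodes, rose from 134 to 136 CPM in WT to 218 to 242 CPM in MB231-myrAKT (log2 fold change 0.77, adjusted p = 4.27e-09). VIM and CD44 were abundant in every group (means of 1366 to 1755 and 415 to 595 CPM), ESR1, PGR and CDH1 stayed at or under 1.12 CPM on average, and ERBB2 was measured at 81.2 to 91.6 CPM. Of the markers of other cells, PTPRC (leukocytes) and ALB (hepatocytes) were at or under 0.130 CPM on average, whereas PECAM1 (endothelium) was at 1.72 to 3.98 CPM in 5 groups and at 21.1 ± 1.31 CPM in MB231-myrAKT. The part of this in the myrAKT results was not tested.

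In WT cells CCN1, ANKRD1, CCN2, AXL and CRIM1 were among the most abundant transcripts. On a scale per kilobase of exon (RPKM), the mean WT level was 620.3 for CCN1, 482 for ANKRD1, 301 for CCN2, 199 for AXL, a receptor tyrosine kinase, and 139 for CRIM1, a transmembrane protein that binds growth factors. These levels were above those of 98.8% to 99.8% of the 15511 genes tested that have an exon length. YAP1 (45.8 RPKM) and AJUBA, a LIM protein that binds LATS kinases (33.2 RPKM), were above 94.6% and 92.0% of these genes. AMOTL2, an angiomotin that binds YAP (26.0 RPKM), WWTR1 (20.2 RPKM) and LATS2 (10.1 RPKM) were the lowest, with LATS2 above 70.8%. Over the 6 groups ANKRD1 spanned the widest range, with a highest group mean 3.41 times its lowest, followed by YAP1 (2.88), CCN1 (2.52) and AJUBA (2.12), and AMOTL2 spanned the narrowest (1.34). Among the WT libraries, replicate 1 was the highest for CCN1, CCN2, ANKRD1, AMOTL2, CRIM1, AJUBA and, narrowly, AXL and the lowest for YAP1 and WWTR1. Exons of 7 of the 10 genes overlap other annotated genes, but these were read at no more than 3.76 CPM in any library.

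**Figure D1:**
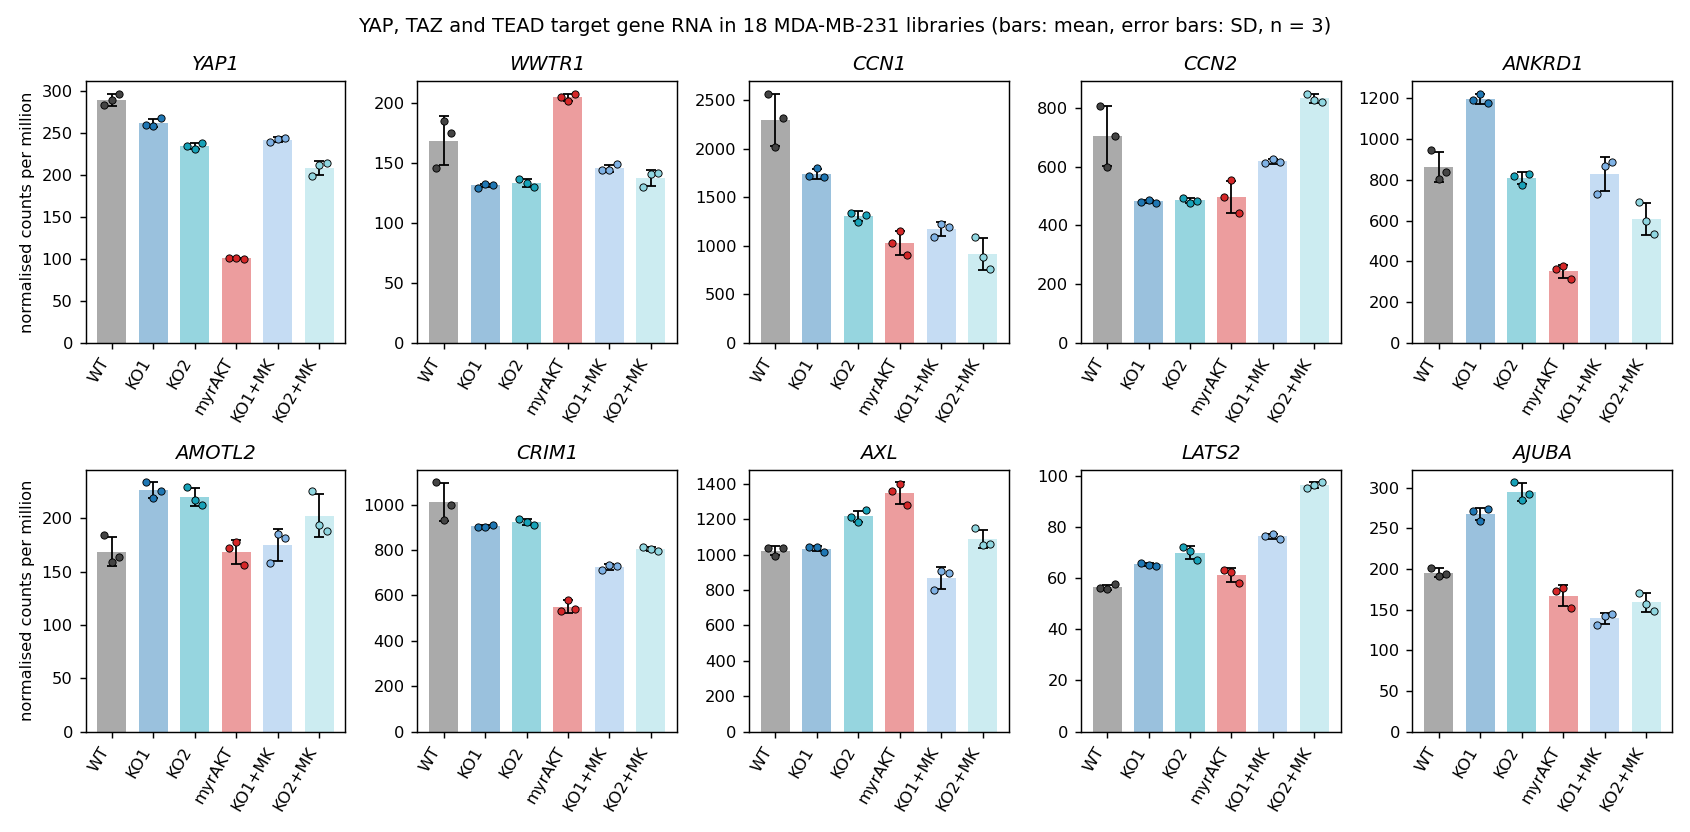
Normalised counts in CPM (vertical axes, linear from 0) of each of the 10 genes in the 6 groups; points are libraries, bars are means and error bars are SD (n = 3). The YAP1 libraries of MB231-myrAKT sit between 99.6 and 101 CPM, below all others, and CCN1 is highest in WT.

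The first question was how these genes differed between cells labelled GPS2 knockout and parental cells. Taking both lines as 1 group, 0 of the 10 genes passed an adjusted p of 0.001 with a fold change of at least 1.5 in either direction (edgeR's quasi-likelihood test, two-sided, Benjamini-Hochberg adjustment over all genes tested, used for every adjusted p given here). Over all genes 4.07% were called higher and 8.59% lower. At an unadjusted p of 0.05, 3 of the 10 were higher and 5 lower, beside 31.4% and 32.5% of all genes, and DESeq2 called 1 lower, CCN1. By the adjusted p alone 3 were higher (AMOTL2, LATS2 and AJUBA) and 2 lower (WWTR1 and CCN2), against 15.5% and 16.6% of all genes. With 1 library left out, the adjusted p reached 0.00386 for LATS2 and 0.00446 for WWTR1. The median log2 fold change of the 10 genes was -0.02, and that of all genes 0.00 to 2 decimals (-0.0029). These counts pool 6 libraries from 2 lines that differed from each other, as the lines taken apart show.

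CCN1 (ENSG00000142871, chr1:85580761-85584589, plus strand, hg38), a matricellular protein that binds integrins, was read at 2557, 2012 and 2313 CPM in the 3 WT libraries. In KO1 it was at 1713, 1798 and 1702 CPM, and in KO2 at 1341, 1245 and 1321 CPM. Every KO library was below every WT library, and every KO2 library below every KO1 library. The fall in KO2 was called (-0.82 on the log2 scale, standard error 0.065, adjusted p = 1.31e-07), and the difference in KO1 was below the minimum fold (-0.42, standard error 0.063, adjusted p = 3.39e-05). For both lines together it was -0.61 (standard error 0.122), with an adjusted p of 0.00107, just above the threshold. CCN1 was the only one of the 10 genes called in either line, with 0 called higher in KO1 or KO2 and 0 lower in KO1, whereas over all genes 4.59% were called higher and 9.28% lower in KO1, and 5.56% higher and 11.2% lower in KO2. At an unadjusted p of 0.05, 4 were higher and 5 lower in each line, beside 33.2% and 34.5% of all genes in KO1 and 34.9% and 34.3% in KO2, and DESeq2 called the same numbers as edgeR in each line.

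CCN2 (ENSG00000118523, chr6:131948176-131951372, minus strand), the paralogue of CCN1 and likewise a secreted matricellular protein, was at 806, 601 and 706 CPM in WT. It was at 481, 487 and 478 CPM in KO1 and at 494, 478 and 484 CPM in KO2. The KO libraries lay close together and below all WT libraries, which were spread far more widely. The log2 fold change was -0.57 (standard error 0.071, adjusted p = 6.12e-06) in KO1 and -0.54 (standard error 0.073, adjusted p = 2.09e-05) in KO2, both short of a fold of 1.5. Without WT replicate 2, the lowest of the WT libraries, both were called (-0.65 and -0.64).

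ANKRD1 (ENSG00000148677, chr10:90912096-90921087, minus strand), an ankyrin repeat protein of the sarcomere and nucleus, differed between the lines. It was at 947, 804 and 839 CPM in WT, at 1192, 1223 and 1177 CPM in KO1 and at 820.4, 774 and 828 CPM in KO2. The KO1 libraries were above all others, and those of KO2 overlapped with WT. The log2 fold change was 0.45 in KO1 (standard error 0.049, adjusted p = 1.19e-06) and -0.10 in KO2 (standard error 0.050, adjusted p = 0.0872). Tested directly, KO1 exceeded KO2 by 0.56 (standard error 0.034, adjusted p = 2.63e-09), a 1.47-fold difference that falls short of the minimum fold. CCN1 likewise was higher in KO1 than in KO2 by 0.41 (adjusted p = 2.24e-07) and YAP1 by 0.15 (adjusted p = 6.57e-04), and AXL was lower in KO1 (-0.25, adjusted p = 1.76e-05), where the adjusted p alone gave 7.06% of all genes higher in KO1 and 5.54% lower. The YAP1 difference did not pass in every fit with 1 library left out (adjusted p up to 0.00579). With the minimum fold, 0 of the 10 genes were called between the lines, where 1.87% of all genes were higher in KO1 and 0.744% lower (3 and 3 of the 10 at an unadjusted p of 0.05, beside 22.4% and 21.2% of all genes, and 0 by DESeq2).

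The co-activators themselves were lower in both lines than in WT, each by less than the minimum fold. YAP1 (ENSG00000137693, chr11:102110447-102233424, plus strand) was at 283, 288 and 297 CPM in WT, at 259.8, 258 and 268 CPM in KO1 and at 234, 231 and 237 CPM in KO2, in 3 ranges that did not overlap. Its log2 fold change was -0.16 in KO1 (adjusted p = 3.19e-04) and -0.31 in KO2 (adjusted p = 2.87e-06). With 1 library left out, the adjusted p in KO1 reached 0.00789. WWTR1 (ENSG00000018408, chr3:149517235-149736714, minus strand) was at 146, 185 and 175 CPM in WT, against 129.7 to 133 CPM in KO1 and 131 to 137 CPM in KO2. Its log2 fold change was -0.38 in KO1 (adjusted p = 6.90e-05) and -0.35 in KO2 (adjusted p = 6.29e-04). With 1 library left out, the adjusted p reached 0.00131 in KO1 and 0.00633 in KO2.

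AJUBA, AMOTL2 and LATS2 were above WT in both lines, each by less than the minimum fold. AJUBA (ENSG00000129474, chr14:22971177-22982551, minus strand) was at 202, 192 and 193 CPM in WT, at 271, 259 and 273 CPM in KO1 and at 307, 285 and 292 CPM in KO2. The groups did not overlap, and the log2 fold change was 0.43 in KO1 (standard error 0.033, adjusted p = 3.28e-08) and 0.58 in KO2 (standard error 0.035, adjusted p = 1.13e-08). The KO2 value was the closest of the 10 genes to the minimum fold without reaching it (1.499-fold), and it was called without WT replicate 1 or KO2 replicate 2. AMOTL2 (ENSG00000114019, chr3:134355347-134375479, minus strand) was at 159 to 184 CPM in WT, 219 to 234 CPM in KO1 and 212 to 229 CPM in KO2, with log2 fold changes of 0.41 and 0.37 (adjusted p = 2.46e-06 and 1.36e-05). LATS2 (ENSG00000150457, chr13:20973036-21061586, minus strand) was at 55.7 to 57.7 CPM in WT, 64.8 to 66.1 CPM in KO1 and 67.2 to 72.2 CPM in KO2, with log2 fold changes of 0.19 and 0.30 (adjusted p = 3.03e-04 and 1.61e-05). In all, 4 of the 10 genes were higher and 4 lower by the adjusted p alone in KO1, and 4 and 4 in KO2. Of all genes, 20.5% and 21.3% were so in KO1, and 20.8% and 22.2% in KO2. In some fits with 1 library left out, YAP1, WWTR1 and LATS2 (adjusted p up to 0.00209) did not pass in KO1, nor WWTR1 in KO2. AXL (ENSG00000167601, chr19:41219223-41261766, plus strand) overlapped with WT in KO1 (log2 fold change 0.00 to 2 decimals, interval -0.07 to 0.06) and was above it in KO2 (0.24, adjusted p = 4.74e-05). CRIM1 (ENSG00000150938, chr2:36355778-36551135, plus strand) passed the adjusted p in neither line (-0.18 and -0.14).

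**Figure D2:**
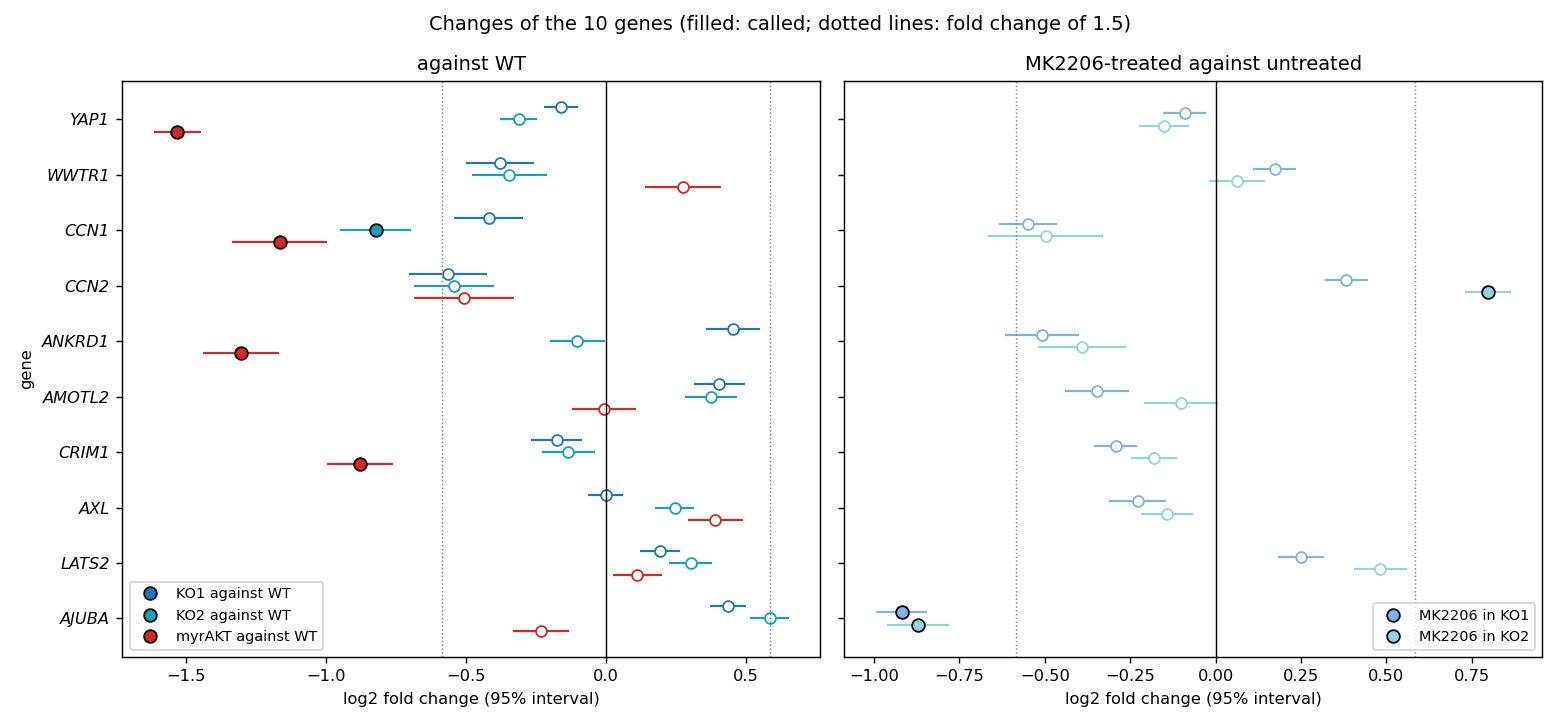
Log2 fold changes (horizontal axes) of each of the 10 genes against WT (left) and of MK2206-treated against untreated cells of the same line (right). Lines are 95% intervals from a normal distribution, narrower than the test implies. Filled points passed both thresholds and dotted lines mark a fold of 1.5. The filled points against WT are CCN1 in KO2 and YAP1, CCN1, ANKRD1 and CRIM1 in MB231-myrAKT, and those for MK2206 are AJUBA in both lines and CCN2 in KO2.

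The comparison of MB231-myrAKT with WT asked which of these transcripts differ with active AKT. It uses the same WT libraries as the KO comparisons, so that values against WT are not independent between them. Here 4 of the 10 genes fell (YAP1, CCN1, ANKRD1 and CRIM1) and 0 rose. Over all genes 8.83% were called lower and 4.94% higher. At an unadjusted p of 0.05, 6 of the 10 were lower and 3 higher, beside 30.1% and 29.1% of all genes, and DESeq2 gave 4 lower and 0 higher. By the adjusted p alone 5 were lower and 1 higher, against 17.3% and 12.7% of all genes. The median log2 fold change of the 10 genes was -0.37 and that of all genes 0.02.

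YAP1 had the largest fall of the 10. It was at 101, 101 and 99.6 CPM in MB231-myrAKT, about a 2.88-fold difference from the WT mean of 289 CPM and below every library of the other 5 groups (198 CPM or more). The log2 fold change was -1.53 (standard error 0.043, adjusted p = 2.74e-12). WWTR1 was at 205, 202 and 208 CPM, above all other libraries of the study. Against WT this was 0.28 on the log2 scale (standard error 0.070, adjusted p = 0.00423) and was not called. The ratio of YAP1 to WWTR1 on the RPKM scale was therefore 0.648 ± 0.0135 (SD, n = 3) in MB231-myrAKT, against 2.29 ± 0.254 in WT and means of 2.00 to 2.63 in the KO and treated groups. MB231-myrAKT was the 1 group in which WWTR1 exceeded YAP1 per length.

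ANKRD1 was at 362, 377 and 314 CPM in MB231-myrAKT, below all other libraries, and fell by 1.31 on the log2 scale (standard error 0.070, adjusted p = 1.94e-09). CCN1 was at 1023, 1149 and 906 CPM and fell by 1.17 (standard error 0.087, adjusted p = 5.81e-08). CRIM1 was at 532, 582 and 539 CPM against 1099, 933 and 998 CPM in WT, and fell by 0.88 (standard error 0.060, adjusted p = 2.46e-08). CCN2 was at 497, 554 and 442 CPM, below the WT libraries but short of the minimum fold (-0.51, standard error 0.091, adjusted p = 2.96e-04). It was called without WT replicate 2 or without myrAKT replicate 2, and with 1 library left out its adjusted p reached 0.00207. AXL was at 1362, 1401 and 1279 CPM, above the WT range of 992 to 1038 CPM (0.39, standard error 0.050, adjusted p = 1.21e-05), and was the 1 gene higher by the adjusted p alone. AJUBA (152 to 177 CPM, -0.23, adjusted p = 0.00166), LATS2 (58.2 to 63.1 CPM, 0.11, adjusted p = 0.0495) and AMOTL2 (156 to 178 CPM) were not called. The AMOTL2 difference was -0.01 with an interval of -0.12 to 0.11, and its sign turned when library totals were used for scaling.

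**Figure D3:**
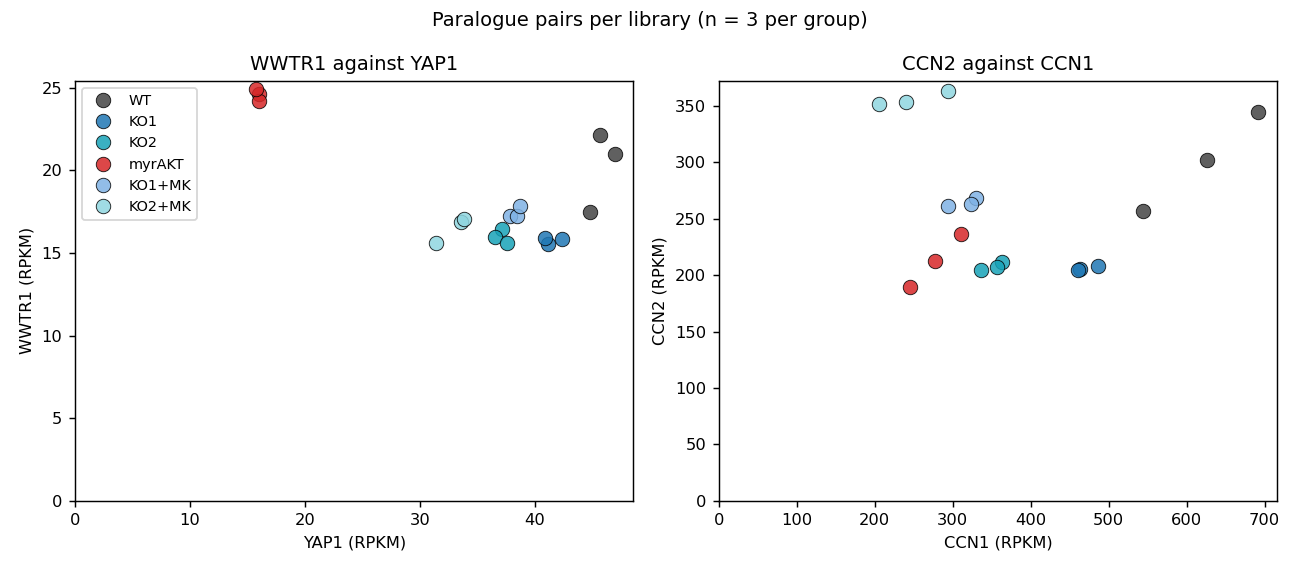
WWTR1 against YAP1 (left) and CCN2 against CCN1 (right) in RPKM, linear axes from 0, 1 point per library and 3 libraries per group. MB231-myrAKT stands apart on the left with low YAP1 and high WWTR1, and the KO2+MK libraries on the right with low CCN1 and high CCN2.

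The treated KO cells were compared with untreated KO cells to see which transcripts responded to AKT inhibition. With both lines together 1 of the 10 genes rose (CCN2) and 1 fell (AJUBA). Over all genes 4.50% were called higher and 2.03% lower. By the adjusted p alone 2 were higher (CCN2 and LATS2) and 2 lower (AJUBA and CRIM1), against 12.8% and 8.75% of all genes. LATS2 reached an adjusted p of 0.00314 with 1 library left out. The pooled fit took no account of the line. CCN1 and ANKRD1, which passed the adjusted p in each line taken apart, did not pass in it (adjusted p = 0.00253 and 0.0185). The median log2 fold change of the 10 genes was -0.20, against 0.00 to 2 decimals (-0.0031) for all genes.

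AJUBA was the gene with the largest response. It was at 131, 142 and 144 CPM in KO1+MK and at 171, 157 and 148 CPM in KO2+MK, below all untreated KO libraries (259 CPM or more) and below all WT libraries (192 CPM or more). It fell by 0.92 on the log2 scale in KO1 (standard error 0.038, adjusted p = 3.85e-09) and by 0.87 in KO2 (standard error 0.047, adjusted p = 4.67e-09). The responses of the lines differed by -0.05 (interval -0.18 to 0.08).

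CCN2 was at 612, 627 and 616 CPM in KO1+MK, between the untreated KO1 level and the WT mean, and at 849.7, 827 and 822 CPM in KO2+MK, above every other library of the study. It rose by 0.80 in KO2 (standard error 0.034, adjusted p = 1.92e-09), and in KO1 the value was 0.38 (standard error 0.032, adjusted p = 1.09e-06), below the minimum fold. The response in KO1 was smaller than in KO2 by 0.41 (log2 difference KO1 minus KO2 -0.41, standard error 0.044, interaction adjusted p = 1.75e-04). In all 2 genes, 0.0128% of those tested, passed an adjusted p of 0.001 in this interaction; the other was DUSP1, a phosphatase that inactivates MAP kinases, which is named here after its values were seen (-0.55, adjusted p = 5.93e-05). The pooled rise of CCN2 (0.61, standard error 0.085, adjusted p = 4.84e-05) was 1.52-fold, and without any 1 of the 3 KO2+MK libraries it was under 1.5-fold (0.55 to 0.56), as it was with no filter on low counts (0.58) and with all 18 libraries in 1 fit (0.57). The interaction of CCN2 missed the threshold with all 18 libraries in 1 fit (adjusted p = 0.121), and the number of genes passing was then 0, against 4 positive and 18 negative differences (KO1 minus KO2) by DESeq2 and 19 and 41 with no filter on low counts. It also missed the threshold when any 1 of the 6 untreated libraries or KO1+MK replicate 3 was left out (adjusted p of 0.00112 to 0.00163).

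CCN1 lay on the other side of the untreated cells from its paralogue. It was at 1086, 1221 and 1197 CPM in KO1+MK and at 1087, 886 and 759 CPM in KO2+MK, below all untreated libraries of the same line. The difference was -0.55 in KO1 (standard error 0.043, adjusted p = 6.02e-07) and -0.50 in KO2 (standard error 0.086, adjusted p = 2.47e-04), each below the minimum fold, and it was called in KO1 without KO1+MK replicate 2 and in KO2 without KO2+MK replicate 1. As a result the RPKM ratio of CCN1 to CCN2 was 2.28 ± 0.0472 (SD, n = 3) in KO1 and 1.19 ± 0.0630 in KO1+MK, and 1.70 ± 0.0426 in KO2 and 0.690 ± 0.113 in KO2+MK. It was 2.07 ± 0.0568 in WT and 1.30 ± 0.00840 in MB231-myrAKT. KO2+MK was the 1 group with more CCN2 than CCN1 per length.

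ANKRD1 was at 732 to 887 CPM in KO1+MK and 536 to 691 CPM in KO2+MK, with log2 fold changes of -0.51 and -0.39 (adjusted p = 8.87e-06 and 1.79e-04), below the minimum fold in each line. LATS2 was higher in both, at 75.5 to 77.4 CPM in KO1+MK and 95.4 to 97.5 CPM in KO2+MK (0.25 and 0.48, adjusted p = 7.69e-05 and 2.56e-07). The difference between the lines in the LATS2 response (-0.23, interval -0.33 to -0.13) had an interaction adjusted p of 0.0776. Within KO1, 0 of the 10 genes were called higher and 1 lower, and within KO2 1 higher and 1 lower. Of all genes, 3.30% were called higher and 1.71% lower in KO1, and 4.90% and 2.16% in KO2. In KO1, 3 of the 10 were higher and 7 lower at an unadjusted p of 0.05, beside 27.2% and 25.4% of all genes, and DESeq2 called 0 higher and 1 lower. By the adjusted p alone, 3 were higher and 6 lower in KO1 and 2 higher and 4 lower in KO2, against 10.9% and 8.26% of all genes in KO1 and 13.1% and 8.78% in KO2. CRIM1 was lower in both (-0.29 and -0.18), AXL and AMOTL2 in KO1 (-0.23 and -0.35), WWTR1 was higher in KO1 (0.17), and YAP1 passed the adjusted p in neither line (-0.09 and -0.15). With 1 library left out, the adjusted p in KO1 reached 0.00658 for AXL, 0.00119 for AMOTL2 and 0.00782 for WWTR1. In KO2 it reached 0.00698 for CRIM1, 0.00361 for CCN1 and 0.00267 for ANKRD1.

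Compared with WT, which was not treated, the treated KO libraries had 1 gene called higher (LATS2) and 1 lower (CCN1), beside 6.11% and 8.94% of all genes. CCN1 averaged 1039 ± 181 CPM (SD, n = 6) in the treated lines and 2294 ± 273 CPM (SD, n = 3) in WT (-1.15 on the log2 scale, standard error 0.128, adjusted p = 1.25e-05). LATS2 averaged 86.5 CPM (75.5 to 97.5 CPM over 6 libraries) against 56.5 ± 1.07 CPM (0.61, standard error 0.095, adjusted p = 1.58e-04), 1.52-fold, and it lost its call with no filter on low counts (0.53) and without any 1 of the WT or KO2+MK libraries (0.57 to 0.63). For CCN2 the difference was 0.04 with an interval of -0.21 to 0.29. Its sign turned in 4 of 9 fits with 1 library left out, to -0.06 without WT replicate 2 and to -0.01 or closer to 0 without any 1 of the KO2+MK libraries.

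Of 28 genes of the Hippo core and its partners, 27 were tested, as VGLL1 had 0 counts in every library. In KO against WT 1 rose and 2 fell, in MB231-myrAKT 1 rose and 7 fell, and with MK2206 in KO 0 rose and 0 fell. In the last of these, 6 were higher and 7 lower at an unadjusted p of 0.05, beside 28.0% and 25.3% of all genes, and DESeq2 called 0. Of all genes, 4.07% rose and 8.59% fell in the first of these comparisons, 4.94% and 8.83% in the second, and 4.50% and 2.03% in the third. The list's median log2 fold changes were -0.03, 0.02 and 0.05, beside 0.00, 0.02 and 0.00 for all genes. Among the TEAD genes, which bind the DNA, TEAD1 was the most abundant per length in every group (22.6 to 42.1 RPKM over all libraries) and TEAD2 the least (3.49 to 6.27). TEAD3 was above TEAD4 in WT (means of 17.5 and 16.1 RPKM) and MB231-myrAKT (17.3 and 13.5 RPKM), and TEAD4 above TEAD3 in the 4 KO groups (19.4 to 26.0 against 13.4 to 13.9 RPKM). TEAD4 was at 36.7 ± 0.698 CPM in WT and rose to 59.2 ± 2.52 CPM in KO1 (0.67, adjusted p = 6.85e-09), while in KO2, at 53.5 ± 2.75 CPM, it was short of the minimum fold (0.54, adjusted p = 2.16e-07). It was called for both lines together (0.60, adjusted p = 5.63e-06). TEAD2 fell in both lines from 17.1 ± 0.415 to 11.5 ± 0.132 and 11.5 ± 0.965 CPM (-0.60, adjusted p = 4.99e-06). The pooled changes were 1.52-fold and 0.661-fold. The TEAD4 call ended with scaling by library totals (0.58) and in 1 of 9 fits with 1 library left out, and the TEAD2 call with no filter (-0.56), with all 18 libraries in 1 fit (-0.58) and in 4 of 9. TEAD3 was lower by less than the minimum fold (-0.38) and TEAD1 did not pass (-0.12, adjusted p = 0.0197). The other fall was in MAP4K4, a kinase that can act on LATS, from 405 ± 8.47 to 255 ± 7.26 and 227 ± 0.693 CPM (-0.77, adjusted p = 4.92e-07).

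In MB231-myrAKT TEAD1 fell from 441 ± 9.26 to 245 ± 3.65 CPM (-0.85, adjusted p = 1.07e-09), with TEAD2, TEAD3 and TEAD4 not called (0.02, -0.02 and -0.26). The signs for TEAD2 and TEAD3 turned under another setting, TEAD2 with no filter on low counts and TEAD3 when scaled by library totals. AMOT, an angiomotin that binds YAP, had 204 to 215 counts per WT library and 0 to 1 count per MB231-myrAKT library, and it had 188 to 223 counts in KO1 and 47 to 63 in KO2. No fold change is given for AMOT, since at such counts it depends on the prior count of the fit. WTIP, a LIM protein related to AJUBA, fell from 4.91 ± 0.367 to 2.10 ± 0.0981 CPM (-1.23, adjusted p = 2.80e-06), and WWC1 (KIBRA), an upstream activator of LATS, from 72.4 ± 6.75 to 34.0 ± 2.38 CPM (-1.09, adjusted p = 7.10e-09). MK2206 changed none of the TEAD genes past the threshold. TEAD4 showed the largest difference there (-0.32, adjusted p = 3.56e-05), below the minimum fold.

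Of 19 further genes known as YAP and TEAD targets, all 19 were tested. In KO against WT 2 rose and 2 fell, in MB231-myrAKT 1 rose and 8 fell, and with MK2206 in KO 0 rose and 4 fell. In the last of these, 0 were higher and 12 lower at an unadjusted p of 0.05, beside 28.0% and 25.3% of all genes, and DESeq2 called 0 and 4. The shares of all genes that rose and fell are those given for the Hippo genes, 4.07% and 8.59%, 4.94% and 8.83%, and 4.50% and 2.03%. The median log2 fold changes of the 19 genes were -0.08, -0.42 and -0.16, beside 0.00, 0.02 and 0.00 for all genes. F3, tissue factor, which starts coagulation, was at 229 ± 10.5 CPM in WT, rose to 543 ± 39.3 CPM in KO1 and 369 ± 11.9 CPM in KO2 (both lines 0.98, adjusted p = 2.42e-04), and fell with MK2206 to 151 ± 12.7 and 115 ± 11.9 CPM (-1.76, adjusted p = 3.60e-07). In MB231-myrAKT F3 was at 92.4 ± 4.61 CPM, among its 8 falls. The pooled rise of F3 in KO lost its adjusted p in 3 of 9 fits with 1 library left out. RBMS3, an RNA-binding protein, fell in the KO lines from 52.9 ± 3.79 to 29.4 ± 1.49 and 25.3 ± 0.634 CPM (-0.97, adjusted p = 9.12e-07). NUAK2, a kinase related to AMPK, was at 22.1 ± 1.67 CPM in WT and fell to 9.77 ± 0.856 CPM in KO2 (-1.18, adjusted p = 2.38e-08), while in KO1, at 14.9 ± 0.979 CPM, it was just short of the minimum fold (-0.58, adjusted p = 3.33e-06). It was called for both lines together (-0.86, adjusted p = 8.12e-04), and this call was lost in 6 of 9 fits with 1 library left out.

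In MB231-myrAKT the largest falls of these 19 genes were in TGFB2, a TGF-β ligand (66.7 ± 6.81 to 15.3 ± 0.819 CPM, -2.13, adjusted p = 1.69e-11), in NUAK2 (-1.63, adjusted p = 1.32e-09) and in TAGLN, the actin-binding protein transgelin (5.40 ± 0.772 to 1.95 ± 0.261 CPM, -1.47, adjusted p = 1.96e-06). TAGLN rose in the KO lines, to 10.2 ± 0.640 CPM in KO1 and 8.45 ± 0.402 CPM in KO2 (both lines 0.77, adjusted p = 1.57e-04). It had 55 to 399 counts per library, and its exons overlap those of PCSK7. The part of this was not tested, and alternative fits are not given for its KO call. With MK2206, FJX1, a secreted protein related to Four-jointed, fell to 22.4 ± 2.45 CPM in KO1+MK and 18.0 ± 1.93 CPM in KO2+MK (-1.38, adjusted p = 1.38e-07), and TGFB2 to 38.6 ± 0.451 and 32.0 ± 1.01 CPM (-0.80, adjusted p = 1.76e-05).

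**Figure D4:**
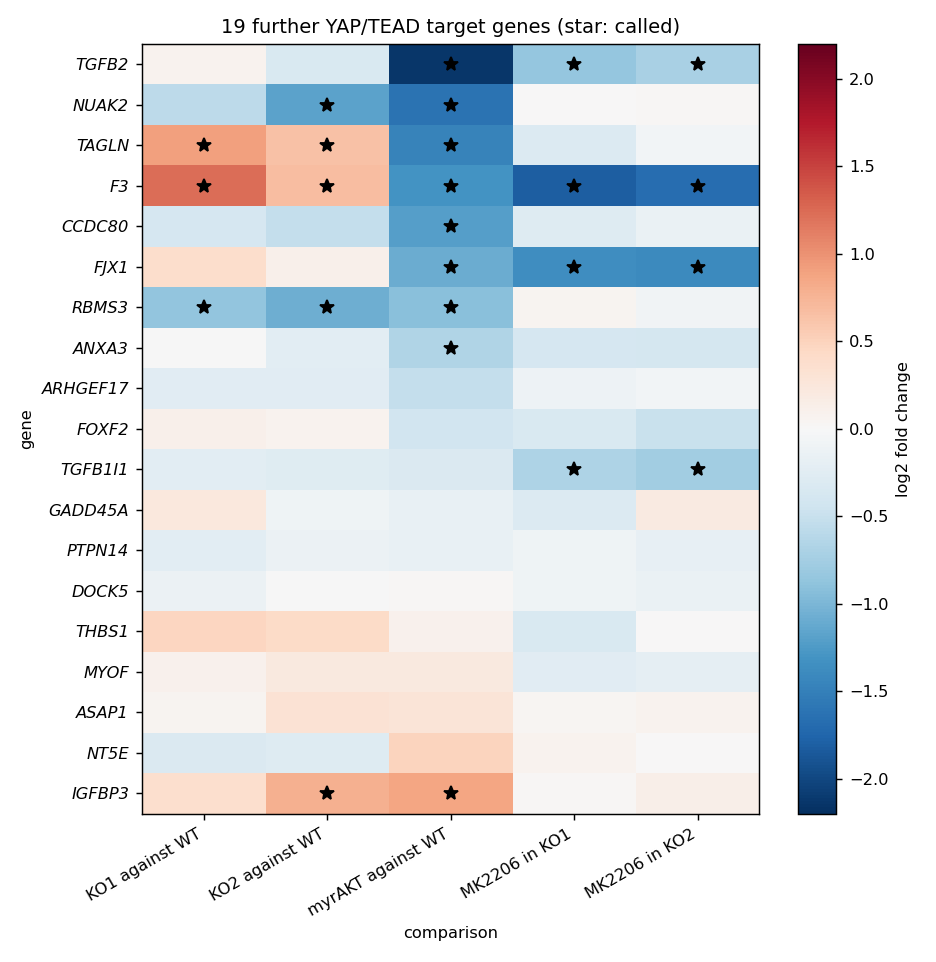
Log2 fold changes (colour, red higher and blue lower) of 19 further YAP and TEAD target genes (rows) in 5 comparisons (columns); stars mark genes past both thresholds. MB231-myrAKT has 8 starred falls and 1 starred rise, and each MK2206 column has 4 starred falls, in TGFB2, F3, FJX1 and TGFB1I1.

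The genes whose log2 CPM followed CCN1 most closely over the 18 libraries were LIMCH1 (Pearson r 0.979), IMPACT (0.979) and RUSC2 (0.970). Those closest to CCN2 were GBA2 (0.934), NCBP2 (0.924) and PER1 (0.903). The 18 points share 6 group means and normalization, and depth was lower in the MK2206 groups than in the others. These values therefore describe likeness of pattern in these libraries. For CCN1 the order of the group means was WT, KO1, KO2, KO1+MK, MB231-myrAKT and KO2+MK from the highest, with overlapping libraries among the last 3. For CCN2 it was KO2+MK, WT, KO1+MK, MB231-myrAKT, KO2 and KO1, where WT overlapped with KO1+MK, and the last 3 overlapped with each other but not with KO1+MK.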

How the data were processed

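The authors trimmed paired reads with Trim Galore, aligned them to hg38 with HISAT2 and counted them per gene with featureCounts, and deposited raw counts for 57448 Ensembl genes, with no normalization or filter. Tool versions, annotation and the strand setting of counting are not given in the sources used here, so a gene and its antisense partner may share reads. Symbols and positions came from GENCODE release 44 (41445 rows with a symbol), and promoters from RefSeq.

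The filter kept a gene that reached 1 CPM in 3 or more libraries, and tests were run with edgeR 4.0.16 (TMM factors, quasi-likelihood) in R 4.3.3 on the libraries compared. A call required an adjusted p no higher than 0.001 together with a 1.5-fold difference, with no minimum fold for the interaction. The study used DESeq2, run here (1.42.0) as an alternative. Tests were checked on simulated data. CPM are TMM-normalised over all libraries, and RPKM divide them by the length of all exons. Depth was 23419198 to 39319910 counts per library, and errors from counting cover sampling only. Intervals are 95% from the standard error and a normal distribution, and are narrower than the quasi-likelihood test implies. For ANKRD1 in KO2 against WT the interval was -0.201 to -0.00445, while that test gave an unadjusted p of 0.0615. Conditions came from the sample labels. Python 3.11.15 with pandas 2.3.3, numpy 2.4.6 and matplotlib 3.10.9 made tables and figures.

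Named were the 10 genes, GPS2, AKT1, the TEAD genes, the 3 largest called changes of each list in 3 comparisons, and the 3 genes most like CCN1 and CCN2. The genes and lists were chosen with earlier results of these data known, and 1 gene of the target list is not reported here. Alternatives were DESeq2, other scaling, no filter, all 18 libraries in 1 fit, a replicate block, the line as a factor, other thresholds and the omission of each library.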

Additional observations from a re-analysis of the deposited data

Results flagged for a closer look

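The lines labelled KO1 and KO2 differed in 4 of the 10 genes at an adjusted p of 0.001 in the direct comparison (edgeR), with 6 of 6 libraries on the side of their line for each. At the same threshold 7.06% of all genes were higher in KO1 and 5.54% lower. On the log2 scale, KO1 minus KO2, ANKRD1 differed by 0.56, CCN1 by 0.41, YAP1 by 0.15 and AXL by -0.25. YAP1 did not pass in every fit with 1 library left out (adjusted p up to 0.00579). The pools carry different sgRNA sets, and line and sgRNA set cannot be told apart.

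The response of CCN2 to MK2206 differed between the lines by -0.41 (KO1 minus KO2, edgeR interaction adjusted p = 1.75e-04), with 3 of 3 treated libraries above all untreated ones in each line. Its adjusted p was 1.21e-01 with all 18 libraries in 1 fit and 0.00139 with the replicate block.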

How the results depend on the processing

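Of 1031 values of single genes under alternatives with every library kept, 954 kept their direction and side of the threshold, 54 passed it newly, 11 no longer passed and 12 changed sign. With 1 library left out, 959 of 1014 were kept, 10 passed newly, 30 no longer passed and 15 changed sign. Without a minimum fold change, 3 of the 10 genes were higher and 2 lower in KO against WT. In KO1 and in KO2 the numbers were 4 and 4. In myrAKT 1 was higher (AXL), and YAP1, CCN1, CCN2, ANKRD1 and CRIM1 were lower. The numbers were 2 and 2 for MK2206 in KO, 3 and 6 for MK2206 in KO1, and 2 and 4 for MK2206 in KO2. For KO1 against KO2 they were 3 and 1. In treated KO against WT 4 were lower, and LATS2 was higher. For KO against WT, 1 gene (CCN1) was lower with DESeq2, RLE factors, library totals, all 18 libraries in 1 fit or an adjusted p of 0.05. In KO1 1 was lower with library totals, and in KO2 1 was higher with all 18 libraries. For MK2206 in KO, 0 were higher with no filter or with all 18 libraries. For KO1 against KO2, 1 was higher with no filter. For treated KO against WT 0 were higher with no filter, and for the interaction 0 were lower with all 18 libraries.

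With a replicate block, treated KO against WT had 0 genes higher and the interaction 0 lower, since LATS2 and CCN2 then had adjusted p-values of 0.00115 and 0.00139, and no other count of the 10 genes moved. The calls of F3 and NUAK2 in KO against WT also ended with the block (adjusted p = 0.00134 and 0.00386). The replicate numbers did not pair the libraries: over 45 same-numbered pairs of groups the correlation of deviations was -0.518 to 0.297, over 0.1 in 12.

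With 1 library left out, the number lower was 0 to 1 for KO against WT (1 without WT replicate 2 or KO1 replicate 2), 0 to 1 in KO1, 1 to 2 in KO2, 1 to 2 for MK2206 in KO1, 1 to 2 for MK2206 in KO2 and 0 to 1 for the interaction. The number higher was 0 to 1 in KO2, 0 to 1 for MK2206 in KO and 0 to 1 for treated KO against WT.

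Signs that turned were all of uncalled differences. AXL in KO1 was 0.00453 with DESeq2, 0.00452 with RLE factors, 0.0343 with no filter and 0.0164 with all 18 libraries, and -0.0104 to 0.0239 with 1 library left out. GPS2 in KO1 was -0.0654 to 0.0252 with 1 left out. In myrAKT, AMOTL2 was 0.0346 and TEAD3 0.0241 with library totals and TEAD2 -0.0191 with no filter, and with 1 left out they were -0.0571 to 0.0501, -0.0659 to 0.0205 and -0.0415 to 0.0456. With no filter TEAD3 for MK2206 was -0.0089, and between KO1 and KO2 WWTR1 was 0.00999, CCN2 0.0231 and CRIM1 0.00353. CCN2 in treated KO against WT was -0.0361 with no filter and -0.0629 to 0.139 with 1 left out, and CCN1 in the interaction -0.179 to 0.0805. The cause of these was not tested.

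Over all genes, leaving out the minimum fold moved every count by over 1.5 times, from 635 higher and 1339 lower to 2420 and 2586 in KO against WT, from 770 and 1376 to 1980 and 2697 in myrAKT, and from 701 and 317 to 1988 and 1364 for MK2206 in KO. In KO1 715 and 1447 became 3191 and 3315, in KO2 866 and 1742 became 3249 and 3466, for MK2206 in KO1 515 and 266 became 1697 and 1288, for MK2206 in KO2 764 and 336 became 2047 and 1369, for KO1 against KO2 292 and 116 became 1100 and 864, and for treated KO against WT 952 and 1393 became 2488 and 2506. At an adjusted p of 0.05, 1185 were higher in myrAKT, 488 lower for MK2206 in KO, 901 higher and 458 lower in KO1, 613 lower in KO2, and 316 lower for KO1 against KO2. With no filter, 418 were lower for MK2206 in KO1, 443 higher and 195 lower for KO1 against KO2, and 2146 lower for treated KO against WT. The interaction called 0 genes higher and 2 lower, and 4 and 18 with DESeq2, 19 and 41 with no filter, 7 and 31 at an adjusted p of 0.05, 0 and 0 with all 18 libraries and 0 and 1 with the replicate block. No scaling moved the median of all genes by as much as 0.1. Changes close to a fold of 1.5 (CCN2, LATS2, AJUBA in KO2, TEAD2 and TEAD4) depend on single libraries, and the spread of the 3 WT libraries limits the comparisons of CCN1, CCN2 and WWTR1.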
